A study of Homo sapiens with 24 samples.

Results

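CCNG1 and CCNG2, which encode the G-type cyclins, and HBP1, which encodes an HMG-box repressor, were followed on Illumina bead arrays in 2 breast cancer cell lines. These are 3 of the 20046 genes that the array annotation names, and every probe assigned to 1 of them was taken, 7 of the 47323 probes on the array: 2 of CCNG1, 3 of CCNG2 and 2 of HBP1. The genes were picked with their treatment responses in these arrays known, so the changes of each treatment against DMSO, and every difference between such changes, are given as descriptions with no test. HCC1954 and JIMT1 cells, which both carry PIK3CA mutations and respond poorly to BYL719, an inhibitor of PI3Kα, were treated for 4 hr with BYL719 (1 μM) plus the PDK1 inhibitor GSK2334470 (1 μM), with BYL719 (1 μM), with GSK2334470 (1 μM), or with DMSO as vehicle. Each of the 8 groups held 3 arrays, numbered as replicates, 24 arrays in all. The labels do not say whether these came from separate cultures, so p-values measure only the spread between arrays, which may be technical. Each line is a single cell line, so a difference between HCC1954 and JIMT1 is a difference between these lines.

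Cyclin G2 and cyclin G1 are atypical cyclins: they resemble the cyclins that drive the cell cycle but are known for slowing it or for regulating p53 through MDM2, and both bind the protein phosphatase PP2A. CCNG1 is a classic target of p53, whereas CCNG2 is a known target of the FOXO transcription factors, which AKT and SGK kinases hold in the cytoplasm while PI3K and PDK1 are active. The HBP1 protein binds RB family proteins, represses cell-cycle and WNT target genes, and has also been described as a FOXO target.

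RefSeq (GRCh38.p14) gave promoter windows for all 3 genes, and these run from 250 bases before to 50 bases after an annotated start. The windows at the annotated gene starts are shown because CCNG2 and HBP1 moved together on these arrays and CCNG1 did not, and because FOXO factors read short DNA motifs. Capitals mark a match on either strand to the FOXO site GTAAACA, the insulin response sequence CAAAACA or the E-box CACGTG, and the motifs do not overlap in any window shown. The windows lie on the plus strand at chr4:77156957-77157256 for CCNG2, chr7:107168753-107169052 for HBP1 and chr5:163437321-163437620 for CCNG1.
CCNG2: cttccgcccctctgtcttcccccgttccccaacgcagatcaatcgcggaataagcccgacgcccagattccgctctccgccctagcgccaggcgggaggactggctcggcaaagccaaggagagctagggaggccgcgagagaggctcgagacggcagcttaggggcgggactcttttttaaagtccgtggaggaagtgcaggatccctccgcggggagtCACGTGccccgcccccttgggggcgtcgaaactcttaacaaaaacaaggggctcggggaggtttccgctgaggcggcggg
HBP1: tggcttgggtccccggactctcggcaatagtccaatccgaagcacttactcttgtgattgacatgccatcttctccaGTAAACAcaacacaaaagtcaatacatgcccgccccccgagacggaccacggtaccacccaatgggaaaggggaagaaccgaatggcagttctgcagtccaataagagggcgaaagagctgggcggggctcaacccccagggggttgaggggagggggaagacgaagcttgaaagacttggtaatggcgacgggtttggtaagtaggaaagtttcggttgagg
CCNG1: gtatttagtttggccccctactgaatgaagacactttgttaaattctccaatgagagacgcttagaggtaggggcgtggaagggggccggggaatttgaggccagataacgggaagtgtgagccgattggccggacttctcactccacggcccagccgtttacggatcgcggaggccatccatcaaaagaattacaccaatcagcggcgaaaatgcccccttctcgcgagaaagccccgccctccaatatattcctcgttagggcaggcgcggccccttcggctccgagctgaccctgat
The HBP1 window held 1 FOXO site, whose first base lies at -173 from the start, and the CCNG2 window held 1 E-box, whose first base lies at -30. None of the 3 motifs was in the CCNG1 window, nor in the second window of CCNG1 (chr5:163437345-163437644) or of HBP1 (chr7:107169674-107169973). Of all 35116 promoter windows in the table, 3.42% held GTAAACA, 4.92% CAAAACA and 7.26% CACGTG. These matches describe letters in short windows, and a window without a match says nothing about a factor.

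Per probe and array, the deposited values were a mean bead intensity, neither background subtracted nor normalized, and a detection p-value, which places the probe among the negative controls. Here the intensities were background corrected and quantile normalized with limma's neqc, and all levels below are normalized log2 intensities unless called deposited intensities. A probe counted as detected on an array at a detection p-value under 0.05, and the 21256 probes with such detections on all arrays of some group were tested. The median deposited intensity was 81.9 on HCC1954 DMSO replicate 2 and 48.5 to 68.6 on the other arrays, and the share of probes detected on an array was 41.0% to 45.2%. All 6 epithelial markers were measured, with EPCAM at a mean of 13.43 in HCC1954 cells and 13.36 in JIMT1 cells with DMSO, whereas 5 of the 11 markers of other cell types passed the filter and PTPRC, CD3E, COL1A2, PDGFRB and LUM did not. With the combination 1 marker of other cell types, CD14, fell in HCC1954 cells (-0.94, adjusted p = 0.00074 from limma) and 0 moved in JIMT1 cells, and of the epithelial markers ERBB2 rose by 0.32 in JIMT1 cells (adjusted p = 0.0073). With GSK2334470, PECAM1 fell in JIMT1 cells (-0.59, adjusted p = 0.0091). The part of these in the results was not tested. As in any bulk sample, fewer cells with a transcript and less transcript per cell cannot be told apart.

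Of the 7 probes, 6 passed the filter, and 142 of the 168 probe measurements were detections. Both HBP1 probes (ILMN_1685415 and ILMN_2160764) and the brighter CCNG1 probe (ILMN_1694491) were detected on all 24 arrays. The other CCNG1 probe, ILMN_2380754, was detected on 9 arrays, never on all 3 of a group, and was not tested although the annotation gives it the same transcript as the brighter probe. The CCNG2 probes ILMN_2228732 and ILMN_1747244, both assigned to the reference transcript NM_004354, were each detected on all 12 HCC1954 arrays and on 10 of 12 JIMT1 arrays. The third CCNG2 probe, ILMN_1879480, is assigned to the cDNA AK092638 and was detected on all 12 HCC1954 arrays and on 5 of 12 JIMT1 arrays. The probe of each gene with the highest mean is called its lead probe: ILMN_2228732 for CCNG2, ILMN_1685415 for HBP1 and ILMN_1694491 for CCNG1.

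CCNG2 stood highest in combination-treated cells of both lines. In HCC1954 cells, its lead probe had 10.94, 10.73 and 10.73 with the combination, 9.98, 9.56 and 9.94 with BYL719, 9.01, 9.02 and 9.06 with GSK2334470, and 8.71, 9.04 and 8.46 with DMSO. The combination and BYL719 arrays did not overlap with each other or with the DMSO arrays, while the GSK2334470 arrays lay within the upper end of the DMSO range and just above it. That overlap rests on DMSO replicate 2 (9.04), the array with the highest median deposited intensity, and the other DMSO arrays lay below all GSK2334470 arrays. In JIMT1 cells, the same probe had 8.70, 8.54 and 8.59 with the combination, 7.99, 8.05 and 7.87 with BYL719, 6.45, 6.48 and 6.87 with GSK2334470, and 5.73, 5.10 and 5.20 with DMSO. All 4 JIMT1 groups were apart from one another. Only 1 of the 3 JIMT1 DMSO arrays detected this probe, with deposited intensities of 72.7, 62.5 and 66.0 there, against 499, 308 and 479 with the combination.

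**Figure D1:**
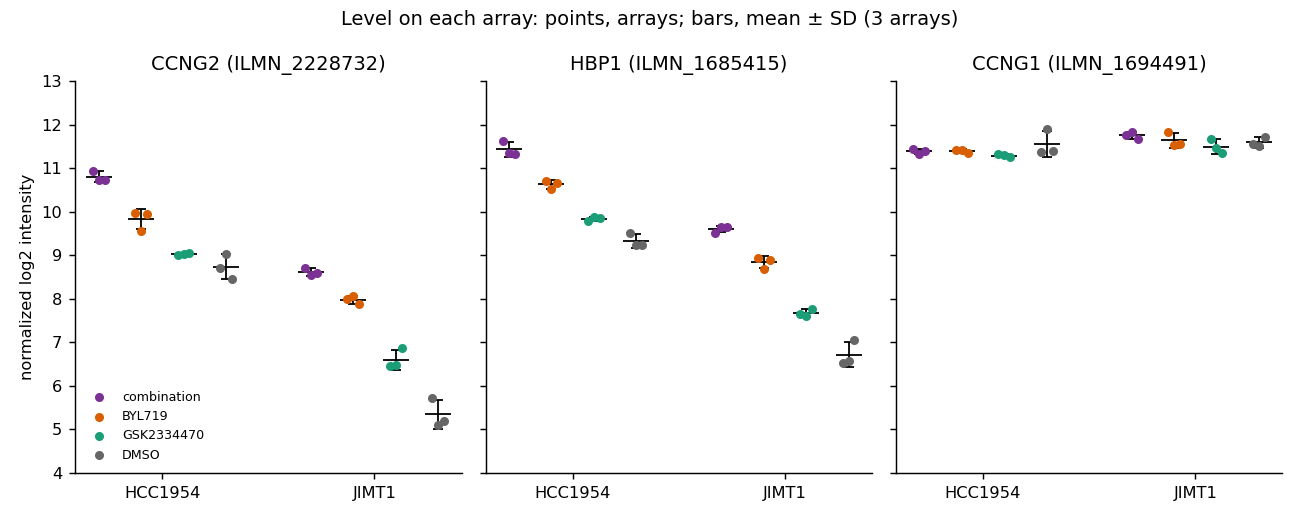
Normalized log2 intensity (y axis) of the lead probes of CCNG2, HBP1 and CCNG1 on each array, with HCC1954 left of JIMT1 and, within a line, the combination, BYL719, GSK2334470 and DMSO from left to right. Points are arrays and black bars the mean ± SD of 3 arrays; CCNG2 and HBP1 step down from the combination to DMSO in both lines, whereas all CCNG1 arrays lie between 11.25 and 11.90.

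The lead probe of CCNG2 was higher than with DMSO by 2.06 on the log2 scale with the combination, by 1.09 with BYL719 and by 0.30 with GSK2334470 in HCC1954 cells (SE 0.16 each). In JIMT1 cells the differences were 3.27, 2.63 and 1.26 (SE 0.16 each). On this probe, the 95% interval of the GSK2334470 difference spanned 0 in HCC1954 cells (-0.04 to 0.63) and did not in JIMT1 cells (0.92 to 1.59). Leaving out 1 array at a time, that HCC1954 difference was 0.16 to 0.45. Among the 12109 genes with a tested probe, ranked by their lead probes, CCNG2 held place 10 with the combination in HCC1954 cells and place 2 in JIMT1 cells. With GSK2334470 alone it held place 839 in HCC1954 cells and place 5 in JIMT1 cells.

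The other CCNG2 probes moved in the same direction with different sizes. ILMN_1747244 had 9.36, 9.45 and 9.46 with the combination, against 7.74, 7.92 and 7.86 with DMSO, in HCC1954 cells. It had 7.30, 7.01 and 7.24 with the combination, against 5.09, 5.43 and 5.25 with DMSO, in JIMT1 cells. These differences were 1.58 and 1.93 on the log2 scale (SE 0.14 each), and those with BYL719 were 0.72 and 1.40. This probe was detected on 1 of the 3 JIMT1 DMSO arrays.

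ILMN_1879480 had 7.87, 7.59 and 7.70 with the combination, against 5.51, 5.58 and 5.71 with DMSO, in HCC1954 cells, a difference of 2.12 (SE 0.13). In JIMT1 cells it had 6.37, 5.99 and 5.99 with the combination, against 4.75, 4.60 and 4.60 with DMSO, where no array detected it. The change there has only a bound: combination-treated cells were at least 1.78-fold higher, and BYL719-treated cells, with 2 of 3 arrays detected, at least 1.20-fold higher. GSK2334470 against DMSO has neither a value nor a bound there, since no array of either group detected this probe. For such a bound, each array of the dimmer group was given the weakest signal of any detected probe on it, or this probe's own signal if higher, and the mean of those was set below the mean of the brighter group. The fitted change was larger in JIMT1 than in HCC1954 cells on ILMN_2228732 and ILMN_1747244, and for ILMN_1879480 the bound in JIMT1 cells does not settle the order.

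**Figure D2:**
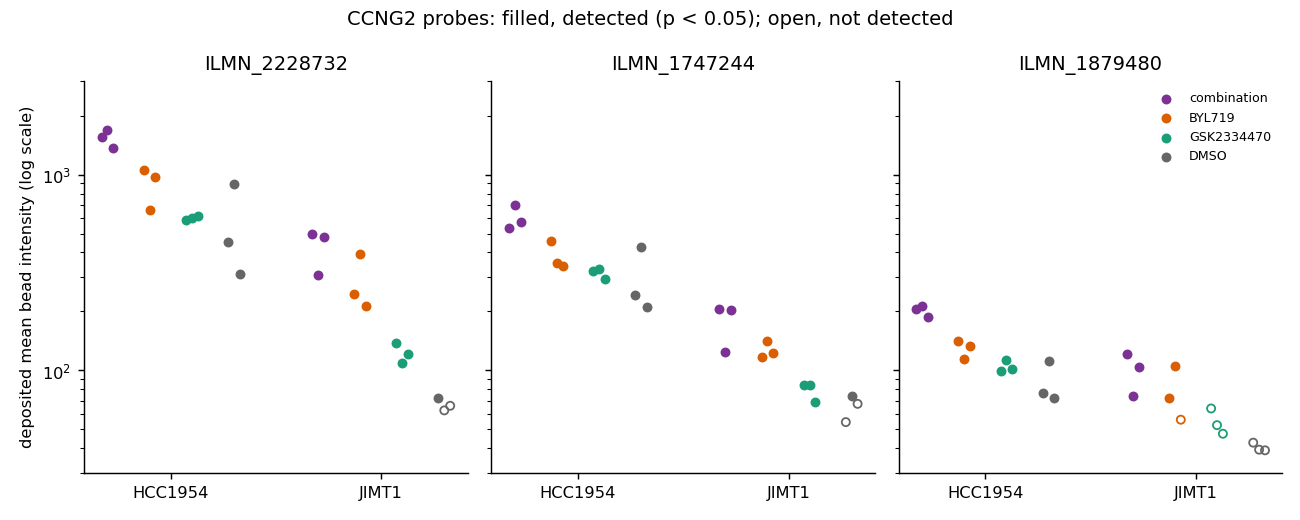
Deposited mean bead intensity (y axis, log scale) of the 3 CCNG2 probes on each array, with HCC1954 left of JIMT1 and, within a line, the combination, BYL719, GSK2334470 and DMSO from left to right. Filled points are detected and open points not detected at a detection p-value under 0.05; the open points are all JIMT1 arrays, 2 with DMSO for each of the first 2 probes and 7 with BYL719, GSK2334470 or DMSO for ILMN_1879480.

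HBP1 followed the same order of treatments. In HCC1954 cells, its lead probe had 11.63, 11.34 and 11.32 with the combination, 10.71, 10.52 and 10.66 with BYL719, 9.79, 9.88 and 9.85 with GSK2334470, and 9.51, 9.23 and 9.24 with DMSO. In JIMT1 cells, it had 9.52, 9.66 and 9.64 with the combination, 8.95, 8.68 and 8.90 with BYL719, 7.64, 7.61 and 7.77 with GSK2334470, and 6.53, 6.56 and 7.05 with DMSO. Within each line, no 2 of the 4 groups overlapped. HBP1 was higher than with DMSO by 2.11, 1.30 and 0.51 with the combination, BYL719 and GSK2334470 in HCC1954 cells and by 2.89, 2.13 and 0.96 in JIMT1 cells (SE 0.13 each).

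The second HBP1 probe, ILMN_2160764, was detected on every array and gave differences of similar size. With the combination it had 10.96, 10.89 and 11.001, against 9.12, 9.16 and 9.18 with DMSO, in HCC1954 cells. In JIMT1 cells it had 9.61, 9.56 and 9.67 with the combination, against 6.50, 6.87 and 7.05 with DMSO. The differences were 1.80 and 2.81 (SE 0.13 each). With GSK2334470 they were 0.33 in HCC1954 cells and 1.16 in JIMT1 cells.

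CCNG1, the p53-responsive relative of CCNG2, did not follow this pattern. In HCC1954 cells, its lead probe had 11.44, 11.32 and 11.39 with the combination, 11.40, 11.42 and 11.34 with BYL719, 11.31, 11.30 and 11.25 with GSK2334470, and 11.37, 11.90 and 11.40 with DMSO. In JIMT1 cells, it had 11.76, 11.82 and 11.67 with the combination, 11.83, 11.52 and 11.55 with BYL719, 11.67, 11.45 and 11.34 with GSK2334470, and 11.54, 11.50 and 11.72 with DMSO. The combination arrays overlapped with the DMSO arrays in both lines. The highest value, 11.90, was that of HCC1954 DMSO replicate 2, the array with the highest median deposited intensity, where the deposited intensity of this probe was 5830, against 2701 and 2207 on the other HCC1954 DMSO arrays.

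The difference of CCNG1 between combination and DMSO was -0.17 in HCC1954 cells (SE 0.12, 95% interval -0.43 to 0.08) and 0.16 in JIMT1 cells (SE 0.12, 95% interval -0.09 to 0.42). Without HCC1954 DMSO replicate 2, the HCC1954 difference was -0.0012. With BYL719 the differences were -0.17 and 0.05, and with GSK2334470 -0.27 and -0.10. The GSK2334470 arrays of HCC1954 lay below all 3 DMSO arrays, with an interval of -0.53 to -0.01, and without DMSO replicate 2 that difference was -0.10. The intervals for the combination bound a change of CCNG1 at less than 0.43 on the log2 scale in either direction, well under the changes of both other genes.

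In the fit over all 21256 probes, 5 of the 6 tested member probes, all except that of CCNG1, passed an adjusted p of 0.05 with the combination in each line, where 10.5% of all probes passed in HCC1954 cells and 16.6% in JIMT1 cells. The genes were chosen on these comparisons, so nothing is read from the counts. The same 5 probes passed with BYL719 in both lines (2.17% and 7.48% of all probes). With median scaling, 3 member probes passed with BYL719 in HCC1954 cells, where 43 of all probes did, against 462 with quantile normalization. With GSK2334470, 0 passed in HCC1954 cells (0.00941% of all probes, 2 probes) and 3 in JIMT1 cells (0.804%), namely the lead CCNG2 probe and both HBP1 probes.

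**Figure D3:**
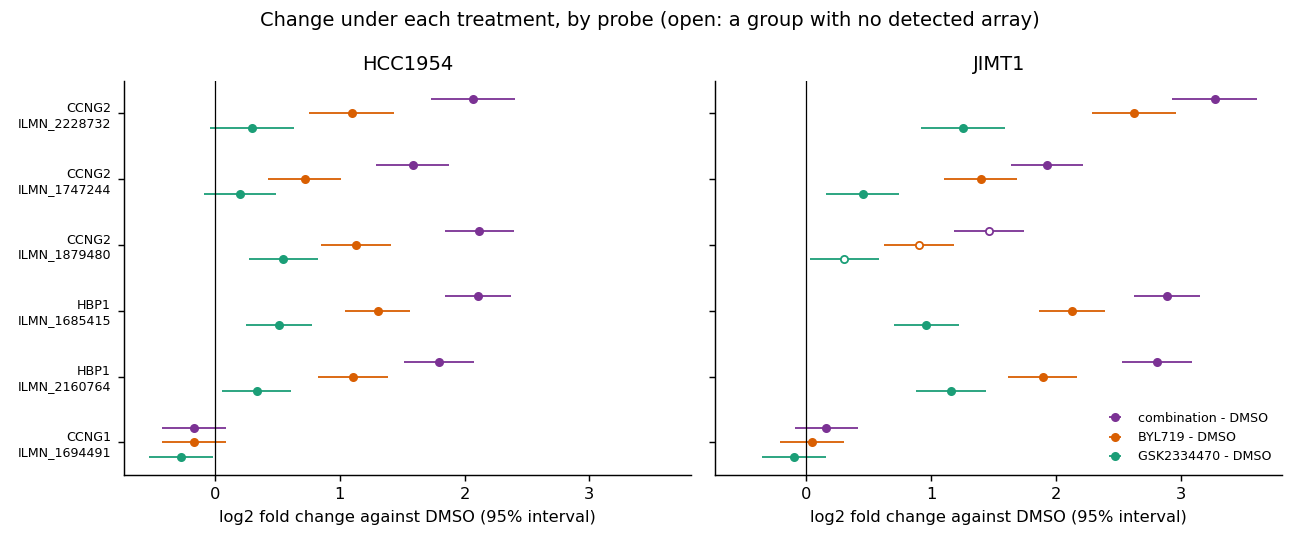
Log2 fold change against DMSO (x axis) of each tested probe of CCNG2, HBP1 and CCNG1 under the combination, BYL719 and GSK2334470, in HCC1954 (left) and JIMT1 (right). Points are limma estimates and lines their 95% intervals. Open points rest on a group with no detected array (ILMN_1879480 in JIMT1, where neither DMSO nor GSK2334470 had a detected array). All CCNG2 and HBP1 probes run in the order combination, BYL719, GSK2334470 in both lines, and the CCNG1 intervals include 0 for 5 of 6 differences.

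With GSK2334470 added to BYL719, the lead probes of CCNG2 and HBP1 stood above their levels with BYL719 alone. Combination-treated cells exceeded BYL719-treated cells by 0.97 for CCNG2 and 0.80 for HBP1 in HCC1954, and by 0.64 and 0.76 in JIMT1 (SE 0.16 for CCNG2 and 0.13 for HBP1), and the arrays did not overlap. The lead CCNG1 probe differed by 0.00 in HCC1954 cells and 0.11 in JIMT1 cells (SE 0.12). In the fit over all probes, 5 of 6 member probes passed in HCC1954 cells, where 1.65% of all probes did, and 3 of 6 in JIMT1 cells, where 0.936% did. In JIMT1 cells the CCNG2 probes ILMN_2228732 and ILMN_1747244 (0.53) did not pass, and ILMN_1879480 (0.56) and both HBP1 probes did. With median scaling, 1 member probe passed in HCC1954 cells and 0 in JIMT1 cells.

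The changes with both agents were set against the sum of the single-agent changes. In HCC1954 cells, CCNG2 was 2.06 higher with the combination, against a sum of 1.39 for the single agents. The departure from the sum was 0.68 (SE 0.23, 95% interval 0.20 to 1.15). In JIMT1 cells the combination gave 3.27, against a sum of 3.88, a departure of -0.61 (95% interval -1.09 to -0.14). Only 1 of the 3 JIMT1 DMSO arrays detected this probe, so that departure rests partly on arrays without a detection, and ILMN_1747244 has the same limit. ILMN_1747244 gave departures of 0.66 in HCC1954 cells and 0.08 in JIMT1 cells (95% interval -0.33 to 0.49). ILMN_1879480 gave 0.44 in HCC1954 cells, and in JIMT1 cells it has no such value, since no DMSO or GSK2334470 array detected it.

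For HBP1 the combination gave 2.11, against a sum of 1.82, in HCC1954 cells and 2.89, against a sum of 3.09, in JIMT1 cells. Its departures were 0.29 and -0.20 on the lead probe and 0.36 and -0.25 on the other, and all 4 intervals included 0. No member probe passed the adjusted threshold for a departure in either line, where 0.0047% and 0.0329% of all probes did. The same DMSO arrays enter every term of these sums. Against GSK2334470 alone, combination-treated cells were higher by 1.77 for CCNG2 and 1.59 for HBP1 in HCC1954 and by 2.01 and 1.93 in JIMT1, and 5 of 6 tested member probes passed in each line, where 5.54% and 7.57% of all probes did.

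BYL719 and GSK2334470 were compared at the same dose and time within each line. This difference is that of 2 changes on which the genes were chosen, so it is given without a test. The lead CCNG2 probe was higher with BYL719 than with GSK2334470 by 0.80 in HCC1954 cells (SE 0.16, 95% interval 0.46 to 1.14) and by 1.37 in JIMT1 cells (95% interval 1.03 to 1.71). The lead HBP1 probe was higher by 0.79 (SE 0.13, 95% interval 0.53 to 1.05) in HCC1954 cells and by 1.17 (95% interval 0.90 to 1.43) in JIMT1 cells. The BYL719 arrays lay above the GSK2334470 arrays in both lines for both genes. With median scaling the HCC1954 differences were 0.59 for both CCNG2 and HBP1.

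Of the other CCNG2 probes, ILMN_1747244 was higher with BYL719 by 0.52 in HCC1954 cells and by 0.95 in JIMT1 cells, and ILMN_1879480 by 0.58 in HCC1954 cells and at least 1.18-fold in JIMT1 cells, where no GSK2334470 array detected it. The second HBP1 probe was higher by 0.77 in HCC1954 cells and 0.73 in JIMT1 cells. CCNG1 differed by 0.10 in HCC1954 cells (95% interval -0.15 to 0.36) and by 0.15 in JIMT1 cells (95% interval -0.11 to 0.40). In the fit over all probes, 4 of 6 member probes passed in HCC1954 cells, where 1.01% of all probes did, and 5 of 6 in JIMT1 cells, where 2.49% did, and nothing is read from these counts. With median scaling, 0 passed in HCC1954 cells and 3 in JIMT1 cells, and without HCC1954 BYL719 replicate 1 or 3 or GSK2334470 replicate 1 or 3, 2 passed in HCC1954 cells.

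HCC1954 and JIMT1 cells differed in the level of CCNG2 and HBP1 before any inhibitor was added. All 8 groups entered the changes known when the genes were chosen. Tests of levels between the lines, here and under each treatment, are therefore not independent of that choice. With DMSO, HCC1954 cells exceeded JIMT1 cells by 3.39 for the lead CCNG2 probe (SE 0.16, adjusted p = 1.6e-13 from limma) and by 2.61 for the lead HBP1 probe (SE 0.13, adjusted p = 1.9e-13). Only 1 of 3 JIMT1 DMSO arrays detected the lead CCNG2 probe, so the size and the adjusted p of its difference rest partly on arrays without a detection. All 3 detected the lead HBP1 probe. The other probes gave 2.59 for ILMN_1747244 (limma adjusted p = 1.2e-12, 1 of 3 JIMT1 DMSO arrays detected) and 2.35 for ILMN_2160764 (limma adjusted p = 2.9e-12). ILMN_1879480, which no JIMT1 DMSO array detected, was at least 1.24-fold higher in HCC1954 cells, a bound given without a test. With DMSO, 5 of 6 tested member probes passed in the fit, ILMN_1879480 among them on its fitted difference, where 63.2% of all probes differed between the lines. CCNG1 was at 11.56 ± 0.30 in HCC1954 cells and 11.59 ± 0.12 in JIMT1 cells (mean ± SD, n = 3 arrays each), a difference of -0.03 (95% interval -0.29 to 0.22, adjusted p = 0.83).

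The gap between the lines remained under each treatment. For the lead CCNG2 probe it was 2.19 with the combination, 1.86 with BYL719 and 2.43 with GSK2334470, and for the lead HBP1 probe 1.83, 1.79 and 2.16 (adjusted p of 2.8e-09 or less from limma for each). In the same groups, 63.6%, 63% and 64.2% of all probes differed. CCNG1 was lower in HCC1954 cells than in JIMT1 cells with the combination by 0.37 (log2 difference -0.37, SE 0.12, adjusted p = 0.013), and the arrays did not overlap. Its differences with BYL719 and GSK2334470, -0.25 and -0.20, missed the threshold (adjusted p = 0.086 and 0.16), although without HCC1954 DMSO replicate 2 the BYL719 difference passed (adjusted p = 0.032).

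**Figure D4:**
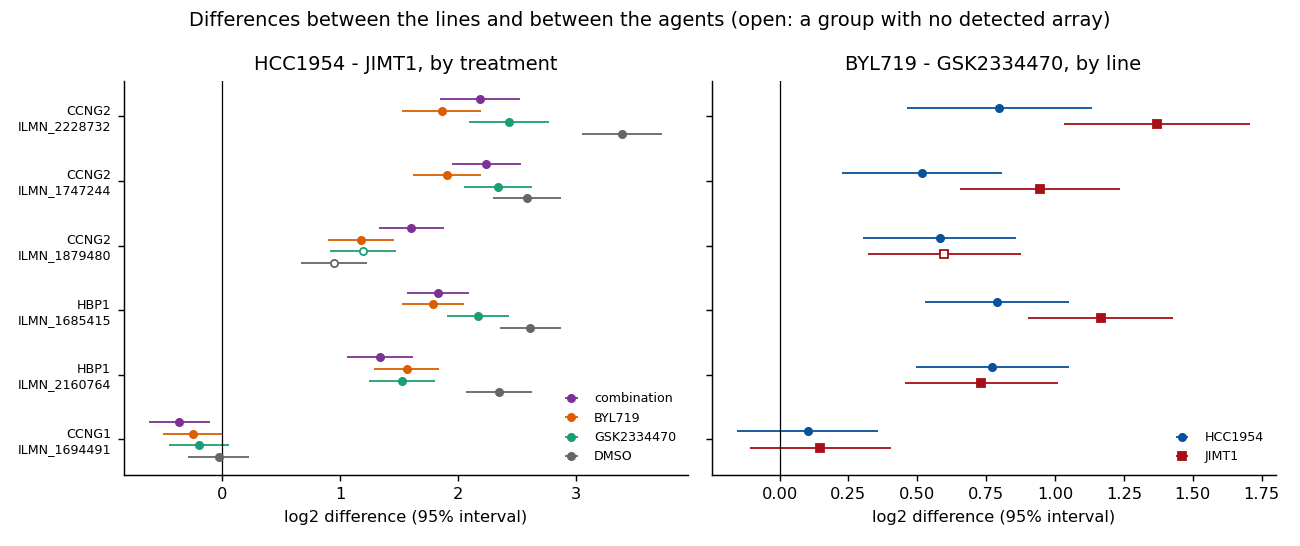
Left, difference between HCC1954 and JIMT1 (x axis, log2) of each tested probe within each treatment; right, difference between BYL719 and GSK2334470 (x axis, log2) within each line. Points are limma estimates and lines their 95% intervals, and open points rest on a group with no detected array; CCNG2 and HBP1 probes are higher in HCC1954 under every treatment and higher with BYL719 in both lines, and the CCNG1 differences lie between -0.37 and 0.15.

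The levels of the 8 groups can be put in order on each lead probe. For CCNG2 the 4 HCC1954 groups came first, in the order combination, BYL719, GSK2334470 and DMSO, followed by the 4 JIMT1 groups in the same order. The neighbours that overlapped were HCC1954 with GSK2334470 and HCC1954 with DMSO, and HCC1954 with DMSO and JIMT1 with the combination. On this probe, CCNG2 in combination-treated JIMT1 cells (8.61 ± 0.08, SD, n = 3) was near its level in vehicle-treated HCC1954 cells (8.73 ± 0.29, n = 3). The other CCNG2 probes set these groups apart, in opposite directions. ILMN_1747244 had 7.18 in combination-treated JIMT1 cells and 7.84 in vehicle-treated HCC1954 cells, and ILMN_1879480 had 6.12 and 5.60. On the lead HBP1 probe, combination-treated JIMT1 cells (9.60 ± 0.07) stood between HCC1954 cells with GSK2334470 (9.84 ± 0.05) and HCC1954 cells with DMSO (9.33 ± 0.16), and no neighbours overlapped. On the second HBP1 probe, combination-treated JIMT1 cells (9.61) stood above HCC1954 cells with GSK2334470 (9.49), and the arrays of these neighbours overlapped. For CCNG1, 6 of the 7 pairs of neighbours overlapped, and the 8 group means spanned 0.46 on the log2 scale, against 5.46 for CCNG2 and 4.72 for HBP1.

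The change with BYL719 was smaller in HCC1954 cells than in JIMT1 cells on the lead probes. The line difference, the HCC1954 change minus the JIMT1 change, was -1.53 for CCNG2 (SE 0.23, 95% interval -2.01 to -1.06) and -0.82 for HBP1 (SE 0.18, 95% interval -1.20 to -0.45). Both changes were known when the genes were chosen, so no test is given. ILMN_1747244 gave -0.68 (95% interval -1.09 to -0.27) and the second HBP1 probe -0.79 (95% interval -1.18 to -0.39). ILMN_1879480 has no value here, because no JIMT1 DMSO array detected it. JIMT1 cells with DMSO had 1 of 3 arrays detected for the lead CCNG2 probe and all 3 for HBP1, and the part of the background correction in these line differences was not tested. In the fit over all probes the 2 lead probes passed, where 0.696% of all probes did, and nothing is read from this.

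With the combination the line difference was -1.21 for the lead CCNG2 probe, -0.35 for ILMN_1747244, -0.79 and -1.01 for the HBP1 probes and -0.33 for CCNG1. ILMN_1879480 has no value here or with GSK2334470, because no JIMT1 DMSO array detected it, so its direction is not settled. In the fit 3 member probes passed (1 with median scaling), where 2.72% of all probes did, and nothing is read from this either. With GSK2334470 it was -0.96 for the lead CCNG2 probe (95% interval -1.44 to -0.48), -0.25 for ILMN_1747244 (95% interval -0.66 to 0.16), -0.45 and -0.83 for the HBP1 probes and -0.17 for CCNG1 (95% interval -0.53 to 0.19). No member probe passed in the fit, where 0.0376% of all probes did.

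Probes of a gene were then compared by their log2 difference on each array, which needs no comparison of their levels. The question was whether this difference is the same in both lines, by an exact permutation test of the line labels within treatments (160000 arrangements, two-sided, 12 arrays per line), adjusted over the 5 pairs of probes. The difference between the HBP1 probes, detected on all arrays, was 0.41 larger in HCC1954 than in JIMT1 cells (exact permutation p = 6.3e-05, adjusted p = 0.0001). Between the CCNG2 probes ILMN_2228732 and ILMN_1747244 it was 0.20 larger in HCC1954 cells (exact permutation p = 0.17, adjusted p = 0.21). Over the 3 inhibitor treatments, in which every array detected both, it was -0.0027 (exact permutation p = 0.98, 9 arrays per line), an alternative chosen after seeing the data.

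ILMN_1879480 was detected on all arrays of both lines with the combination only. There, the lead CCNG2 probe exceeded it by 3.03 to 3.14 in HCC1954 cells and by 2.34 to 2.60 in JIMT1 cells, so the lines did not overlap. ILMN_1747244 exceeded it by 1.49 to 1.86 in HCC1954 cells and by 0.93 to 1.25 in JIMT1 cells, again without overlap. With 3 arrays per line, the exact permutation p = 0.1 of each is the smallest the test can give. For the CCNG1 probes no treatment had both detected on all arrays, and no comparison is given.

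Across the 24 arrays, after subtracting the mean of each line, the probes of CCNG2 correlated at r from 0.89 to 0.94 and those of HBP1 at 0.98. For the CCNG1 probes r was -0.03, but the dimmer one was detected on only 9 arrays, so this says little about their agreement. The 24 arrays share the 4 treatments, so the values describe the common treatment pattern. By the same measure, CCNG2 and HBP1 had r = 0.97 on their lead probes, CCNG1 and CCNG2 0.20, and CCNG1 and HBP1 0.17. The 5 genes most like CCNG2 among 12109 were the muscle atrophy ubiquitin ligase adaptor FBXO32 (0.98), the chromatin regulator ARID5B (0.98), YPEL3 (0.98), HBP1 (0.97) and the phosphatase CTDSP2 (0.96). Those most like HBP1 were TMEM140 (0.99), YPEL3 (0.97), CCNG2 (0.97), FBXO32 (0.97) and the MYC network repressor MXD3 (0.96). CCNG1 had no gene as close: its nearest were TRAPPC6B (0.69), GALM (0.68), RARRES1 (0.66), RBP7 (0.65) and JTB (0.65).

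Lists of known partners of these proteins were examined next. Of 12 measured genes around the G cyclins, which include the PP2A subunits, MDM2 and GAK, 1 fell and 0 rose in each line with the combination, and the gene that fell was PPP2R5B, a regulatory PP2A subunit (log2 fold changes -0.48 in HCC1954 cells and -0.54 in JIMT1 cells, SE 0.13). Of 7 HBP1 partners, 2 rose in each line: the RB family member RBL2 (0.43 and 0.53) and the corepressor scaffold SIN3A (0.44 and 0.50), and RB1 did not pass the test (0.13 and 0.26). The list medians of the HBP1 partners were 0.13 in HCC1954 cells and 0.25 in JIMT1 cells. With median scaling, 0 HBP1 partners rose in either line and 0 G cyclin partners fell in JIMT1 cells. In HCC1954 cells 0 G cyclin partners fell within the arrays of that line or without DMSO replicate 1 or combination replicate 2 or 3, and 1 HBP1 partner rose without DMSO replicate 1 or combination replicate 2. With 1 probe per gene, 5.99% of 12109 genes rose and 7.04% fell with the combination in HCC1954 cells, and 11.2% rose and 7.78% fell in JIMT1 cells. Median scaling lowered the median change of all probes with the combination in HCC1954 cells to -0.11 and the share of called probes that were higher there to 25.5%, against 48.3% with quantile normalization; in JIMT1 cells this share was 62.8%, against 53.2%.

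Among 7 measured genes that HBP1 has been reported to regulate, 2 fell and 0 rose in each line with the combination. They were cyclin D1 (CCND1), which drives G1 (-0.54 in HCC1954 cells, -0.64 in JIMT1 cells), and the CDK inhibitor CDKN1A (-0.54 and -0.64), also a p53 target. DNMT1, EZH2, MIF and CDKN2A passed in neither line, with log2 fold changes between -0.12 and 0.11, and neither did NCF1 (0.39 in HCC1954 cells and -0.11 in JIMT1 cells). Without HCC1954 DMSO replicate 1 or 3 or combination replicate 2, 1 of the 7 fell in HCC1954 cells. Over all genes, 7.04% fell and 5.99% rose in HCC1954 cells, and 7.78% fell and 11.2% rose in JIMT1 cells.

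The other cell-cycle inhibitors moved in both directions. Of 11 measured CDK inhibitors and antiproliferative genes, 5 rose and 1 fell in HCC1954 cells with the combination, and 4 rose and 2 fell in JIMT1 cells. CDKN2B, which inhibits CDK4 and CDK6, rose by 0.56 in HCC1954 cells and 1.63 in JIMT1 cells, the antiproliferative factor BTG1 by 0.59 and 1.34, and the CDK inhibitor CDKN1C by 0.52 and 1.14. In HCC1954 cells 0 of the 11 rose with median scaling, 3 rose with no detection filter or within the arrays of that line, and 2 or 3 rose without DMSO replicate 2 or combination replicate 1 or 2. The number that fell there was 0 to 3 when 1 array was left out. Of all genes, 5.99% rose and 7.04% fell in HCC1954 cells, and 11.2% rose and 7.78% fell in JIMT1 cells. Of 7 measured FOXO targets of the cell cycle other than CCNG2, several of them also in the lists above, 4 rose and 2 fell in HCC1954 cells and 3 rose and 3 fell in JIMT1 cells, with BCL6, a transcriptional repressor, rising by 1.09 and 0.91. With median scaling 1 of the 7 rose in HCC1954 cells, and 1 fell there without DMSO replicate 1 or 3 or combination replicate 2. Of the FOXO factors themselves, FOXO4 rose by 0.83 and 1.63, FOXO1 had -0.42 in HCC1954 cells, called but not with median scaling, within the line or without DMSO replicate 1 or 3 or combination replicate 1, and -0.31 in JIMT1 cells, not called, and FOXO3 had -0.04 and -0.27, not called.

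Of 13 measured core cyclins, CDKs and CDC25 phosphatases, 1 rose and 4 fell in HCC1954 cells, and 2 rose and 4 fell in JIMT1 cells with the combination. Among all genes, 5.99% rose and 7.04% fell in HCC1954 cells, and 11.2% rose and 7.78% fell in JIMT1 cells. CDC25C, a phosphatase of mitotic entry, rose by 0.71 and 1.25, whereas CDC25A had -0.78 and -0.76 and CCNE1, which encodes cyclin E1, -0.64 and -0.79. With median scaling, 0 of the 13 were called higher in HCC1954 cells and 1 in JIMT1 cells. Of 15 other atypical cyclins, 0 rose and 1 fell in HCC1954 cells, and 1 rose and 4 fell in JIMT1 cells, beside the same shares of all genes. The list median was -0.17 in HCC1954 cells and -0.01 in JIMT1 cells, and with median scaling 0 fell and 0 rose in JIMT1 cells. Without JIMT1 DMSO replicate 1 or 3 or combination replicate 3, 2 fell in JIMT1 cells, and in HCC1954 cells 0 fell with median scaling or without DMSO replicate 1 or combination replicate 3.

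The p53 targets, the group to which CCNG1 belongs, did not move one way. Of 19 measured, 4 rose and 5 fell in HCC1954 cells, and 3 rose and 5 fell in JIMT1 cells with the combination, with list medians of -0.09 and -0.06, and in HCC1954 cells 2 rose with median scaling and 3 fell without DMSO replicate 3. The shares of all genes were 5.99% higher and 7.04% lower in HCC1954 cells, and 11.2% higher and 7.78% lower in JIMT1 cells. AEN, a nuclease of apoptosis, had -1.54 and -1.09, the metabolic regulator TIGAR -0.88 and -0.85, and TP53INP1, an autophagy and stress protein, rose by 1.61 and 0.94. MDM2, which restrains p53, had -0.00 and 0.11 and did not pass the test.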

How the data were processed

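Total RNA of 24 samples was hybridised as biotinylated cRNA to Illumina HT-12 arrays. The authors deposited mean bead intensities on a linear scale with no normalization, a detection p-value per probe and array, and bead counts (median 17 to 20 a probe); the submitters' processing notes name GenomeStudio without a version. They also deposited processed intensities, used as an alternative, whose scaling is not stated: 28% are below 0 and the array medians are 14.1 to 14.2. The bead standard errors (24 columns) were left out. The number of arrays limits the precision.

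The raw intensities were normalized by limma 3.58.1 under R 4.3.3 (neqc from the detection p-values, offset 16, quantile normalization, log2), which understates changes of dim probes. A model of the 8 group means over 24 arrays (lmFit, eBayes, 16 residual and 3.71 prior degrees of freedom) gave 21 contrasts, adjusted by Benjamini-Hochberg over 21256 probes at 0.05. Of 47323 probes, 30113 had 1 gene symbol in the platform table, 8 several and 17202 none. The members and the 11 gene lists were chosen with earlier results of these data known. Genes named are the members, up to 3 per list with the largest mean change among those called alike in both lines, and the 5 most correlated with each member; FOXO1, FOXO3, RB1, MDM2 and the uncalled genes beside them were added as context after their values were seen. Probe pairs were tested by exact permutation in Python 3.11.15. The procedures were tested on simulated data. Alternatives were scaling, offset, processed values, filters, 1 probe per gene, 1 line, replicate block, ordinary t statistics and each array left out. Sequences come from RefSeq (GRCh38.p14).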

Additional observations from a re-analysis of the deposited data

Results flagged for a closer look

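The change with BYL719 differed between the lines for 2 lead probes, as the HCC1954 change minus the JIMT1 change passed the threshold in the limma fit across all probes. The genes were chosen with both changes known, so this difference is a description and no independent support. For CCNG2 (ILMN_2228732) it was -1.53, with changes of 1.09 in HCC1954 cells and 2.63 in JIMT1 cells, and 1 of 3 JIMT1 DMSO arrays detected the probe. For HBP1 (ILMN_1685415) it was -0.82, with changes of 1.30 in HCC1954 cells and 2.13 in JIMT1 cells, all arrays detected.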

How the results depend on the processing

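With 3 arrays a group, differences of dim probes rest on few detections. In JIMT1 cells, combination and BYL719 against DMSO or GSK2334470 have only bounds for ILMN_1879480 of CCNG2. GSK2334470 against DMSO has no bound there. No slide is named in the files, so slide as a block was not run. Samples share only a replicate number: deviations of same-numbered arrays correlated at -0.22 to 0.22, and 5 of 24 arrays correlated best with their own number. With the replicate number as a block, the lead CCNG2 probe differed between BYL719 and GSK2334470 by 0.80 in HCC1954 cells and kept its side of the threshold, ILMN_1879480 did not in that comparison, no other member call changed, and the count of called probes there was 122, against 215.

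In the fit across all probes these values no longer passed: with median scaling, the BYL719 against GSK2334470 difference in HCC1954 cells of CCNG2 (0.5921) and HBP1 (0.5893) and the HBP1 line difference with BYL719 (-0.92); the same HBP1 line difference with an offset of 50 (-0.56) and with no detection filter (-0.82); and the CCNG2 difference between the agents within the 12 HCC1954 arrays (0.80). The combination against DMSO difference was 1.94 for HBP1 in HCC1954 cells with median scaling, and 2.51 for CCNG2 and 2.54 for HBP1 in JIMT1 cells with an offset of 50. With that offset the CCNG2 pair ILMN_2228732 and ILMN_1747244 differed by 0.32 between the lines (exact permutation, adjusted p = 0.0087). The pairs with ILMN_1879480 differed by 0.58 for ILMN_2228732 and 0.64 for ILMN_1747244 with the combination alone, against 1.24 and 1.04 over all arrays, where it was not detected on 7 JIMT1 arrays. The non-lead ILMN_1879480 fell short in HCC1954 cells between the agents also with median scaling, processed intensities and no filter. In JIMT1 cells it did so with median scaling, an offset of 50 and within the line. ILMN_1747244 passed in HCC1954 cells with an offset of 50. The second HBP1 probe fell short between the agents with median scaling, at 0.57 in HCC1954 cells and 0.71 in JIMT1 cells. Its line difference with BYL719 (-0.79) passed with detection p-values under 0.01. The CCNG1 difference between the agents in HCC1954 cells turned to -0.10 with median scaling. The cause was not tested for any of these.

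Leaving out 1 array at a time, the agent difference of CCNG2 in HCC1954 cells was 0.72 to 0.93, the HBP1 line difference with BYL719 -0.99 to -0.73 (7 of 24 no longer passed), and the HCC1954 against JIMT1 difference of CCNG1 with BYL719 -0.30 to -0.15. In the other lead-probe comparisons and the probe pairs the side of the threshold was kept. Median scaling called 948 probes with the combination in HCC1954 cells and 1275 in JIMT1 cells, against 2235 and 3527, and 39 and 105 between the agents, against 215 and 529; the BYL719 line difference had 13, against 148. With no filter, 112 probes were called between the agents in HCC1954 cells and 91 for that line difference. Without 1 array, the count between the agents in HCC1954 cells was 65 to 538. Within 1 line, 82 and 347 were called between the agents.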
